A study of Saccharomyces cerevisiae with 9 samples.

Results

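The genes described here encode the proteasome, the protease that degrades ubiquitin-tagged proteins in the cytoplasm and nucleus, in the budding yeast Saccharomyces cerevisiae. They comprise 34 of the 6256 genes on the array: 7 alpha ring subunits (SCL1, PRE5, PRE6, PRE8, PRE9, PRE10 and PUP2), 7 beta ring subunits (PRE1, PRE2, PRE3, PRE4, PRE7, PUP1 and PUP3), 10 subunits of the base (RPT1 to RPT6, RPN1, RPN2, RPN10 and RPN13), 8 subunits of the lid (RPN3, RPN5 to RPN9, RPN11 and RPN12), the transcription factor RPN4 and the assembly factor UMP1. They were chosen by name and not by a measured value, though with earlier results of these data known, and all 34 were found.

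RNA of 5 strains was set against a common reference on 9 arrays with 2 colours. RM11-1a, derived from a vineyard isolate, had 3 arrays (replicates 7, 9 and 11), and it was set against the laboratory strain BY4716, which also had 3 arrays (replicates 7, 9 and 11). Allele replacement strains had 1 array each. YAD350, whose label also gives the name YLK723, carried the D30G replacement in MKT1 in the BY4742 background. YLK804 carried the RM allele of SAL1 in the BY4724 background, and YLK806 carried that gene's BY allele in the RM11-1a background. Every strain was grown in minimal medium (YNB) with 2% glucose, leucine, lysine and uracil, and YAD350 alone also received histidine at 20 mg/L. The reference was pooled RNA of BY4716 and RM11-1a grown on glucose and on ethanol, so a ratio of 0 on the log2 scale is the level of that pool and not of either parent on glucose. BY4724 and BY4742, the backgrounds of YLK804 and YAD350, were not on arrays of their own, and BY4716 stood in for them. The labels do not state whether the 3 RNA samples of each parent were grown separately, and the p-values therefore measure the spread among arrays, part or all of which may be technical.

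The proteasome consists of a barrel-shaped core particle, in which rings of beta subunits with the proteolytic sites lie between rings of alpha subunits that form the gate, and of a regulatory particle at its ends. The base of the regulatory particle contains the Rpt ATPases, which unfold substrates and open the gate, together with scaffold subunits and ubiquitin receptors, and the lid contains the deubiquitinating enzyme Rpn11 and its scaffold. In yeast, Rpn4 binds a shared element upstream of most proteasome genes and activates them, and Rpn4 protein is itself degraded rapidly by the proteasome. Ump1 guides the maturation of the core particle and is degraded when maturation is complete.

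All 34 genes were well above background on 9 of 9 arrays in both channels, none had a saturated spot, and all entered the test. Of these, 24 had 2 spots of the same probe, and the 2 spots of a gene on an array differed by a median of 0.040 on the log2 scale, over 207 such pairs. RPN6 has no value on BY4716 replicate 7, because its spot carried an outlier flag, and its fit there uses 2 BY4716 arrays. Marker genes checked the labels: LYS2 and STE2 (the alpha-factor receptor of a cells) were higher in RM11-1a than in BY4716 by 4.12 and 4.96 on the log2 scale, and STE3 (the a-factor receptor of alpha cells) differed by -4.09. URA3 was at -2.42, -2.42 and -2.63 on the RM11-1a arrays, against 1.40, 1.38 and 1.35 on the BY4716 arrays. STE2 was also 4.73 higher in YLK804 than in BY4716, while YLK806 and YLK804 differed by 0.15 (adjusted p = 0.42) and YAD350 and BY4716 by -0.07 (adjusted p = 0.62). RM11-1a, YLK806 and YLK804 thus differ from BY4716 and YAD350 in these mating type transcripts. The labels of the 3 allele replacement arrays disagree on the dye; the strain was read as Cy5, since each array correlated with its background parent over all genes at 0.807 for YAD350, 0.879 for YLK804 and 0.886 for YLK806.

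The genes varied unequally in their level relative to the pool. The range of a gene over the 9 arrays had a median of 0.43 on the log2 scale, and the SD over the 3 replicate arrays had a median of 0.044 for RM11-1a and 0.041 for BY4716. RPN5, a lid scaffold subunit, had the widest range, 0.92, followed by PRE10, an alpha subunit, with 0.89. PRE2, the beta subunit with chymotrypsin-like activity, had the narrowest, 0.08, and lay between -0.03 and 0.06 on every array. The highest strain mean belonged to RM11-1a for 18 genes, to YLK806 for 7, to YLK804 for 2, to YAD350 for none and to BY4716 for 7. YAD350 was the lowest strain for 14 genes and YLK804 for 10. Means of parental strains rest on 3 arrays and the other values on 1, so single arrays reach the extremes more readily.

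**Figure D1:**
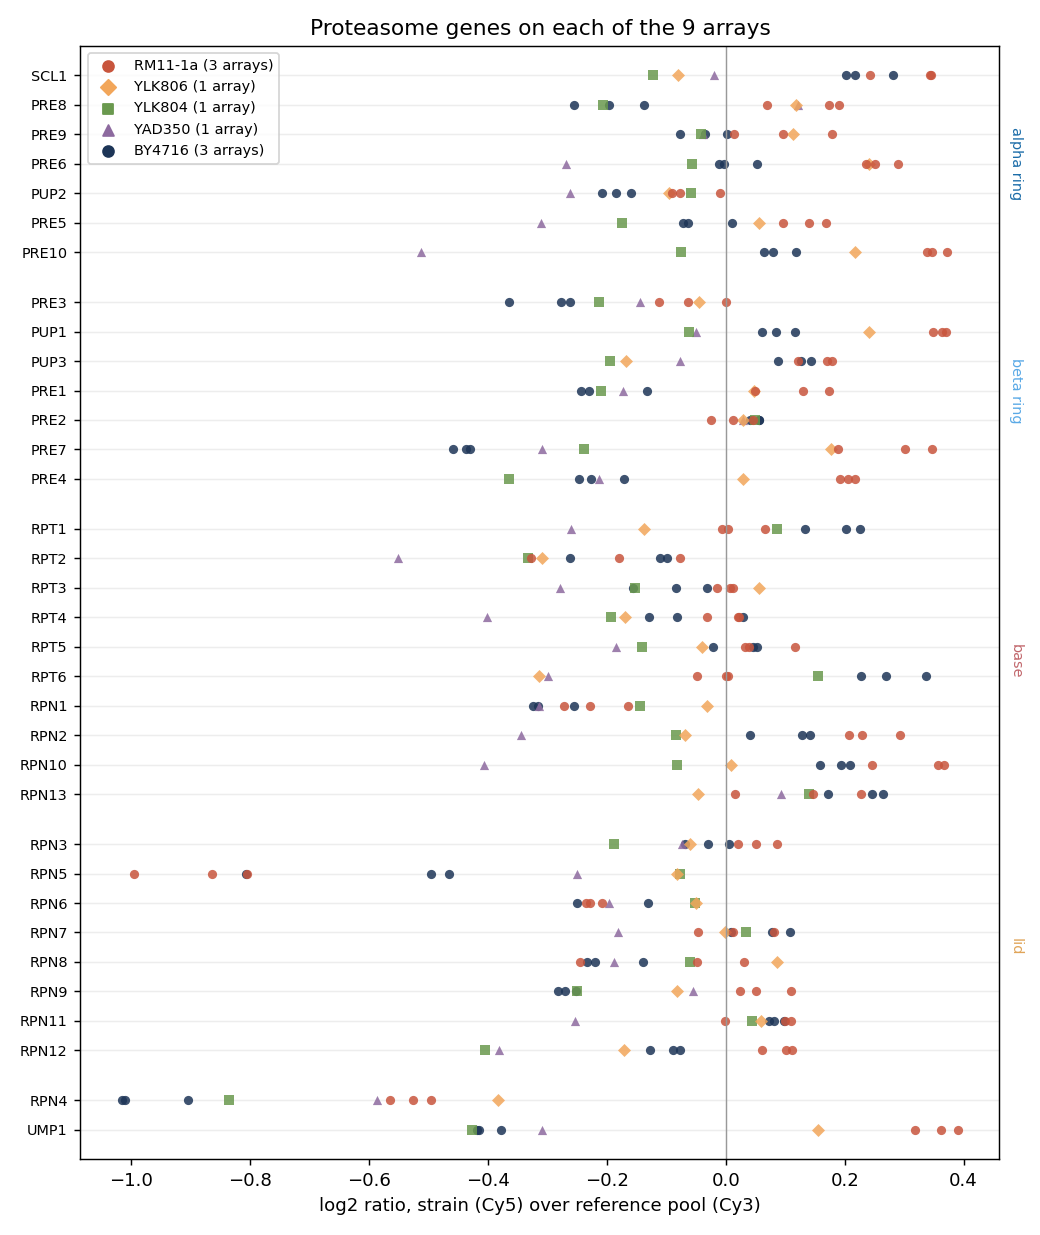
Log2 ratio of the strain (Cy5) over the reference pool (Cy3) for each of the 34 proteasome genes, with 1 point per array, coloured by strain and grouped by part of the proteasome. RM11-1a points lie to the right of BY4716 points for most core particle genes, RPN4 lies below 0 on every array, and PRE2 hardly varies.

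Of the 34 genes, RPN4 was the furthest below the pool in BY4716. Its log2 ratio was -0.56, -0.53 and -0.50 on the RM11-1a arrays, -0.59 for YAD350, -0.83 for YLK804 and -0.38 for YLK806, against -1.01, -0.90 and -1.01 on the BY4716 arrays. The 3 RM11-1a arrays lay above all BY4716 arrays, and YAD350 and YLK804 lay between the parents. UMP1 was at 0.39, 0.36 and 0.32 on the RM11-1a arrays, -0.31 for YAD350, -0.43 for YLK804 and 0.16 for YLK806, against -0.41, -0.42 and -0.38 in BY4716. Both strains of the RM11-1a background thus had UMP1 above the pool, and the 3 strains of the BY background had it below. PUP2, RPT2, RPN1, RPN4, RPN5 and RPN6 were below the pool on every array with a value, and no gene was above the pool on all 9 arrays.

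**Figure D2:**
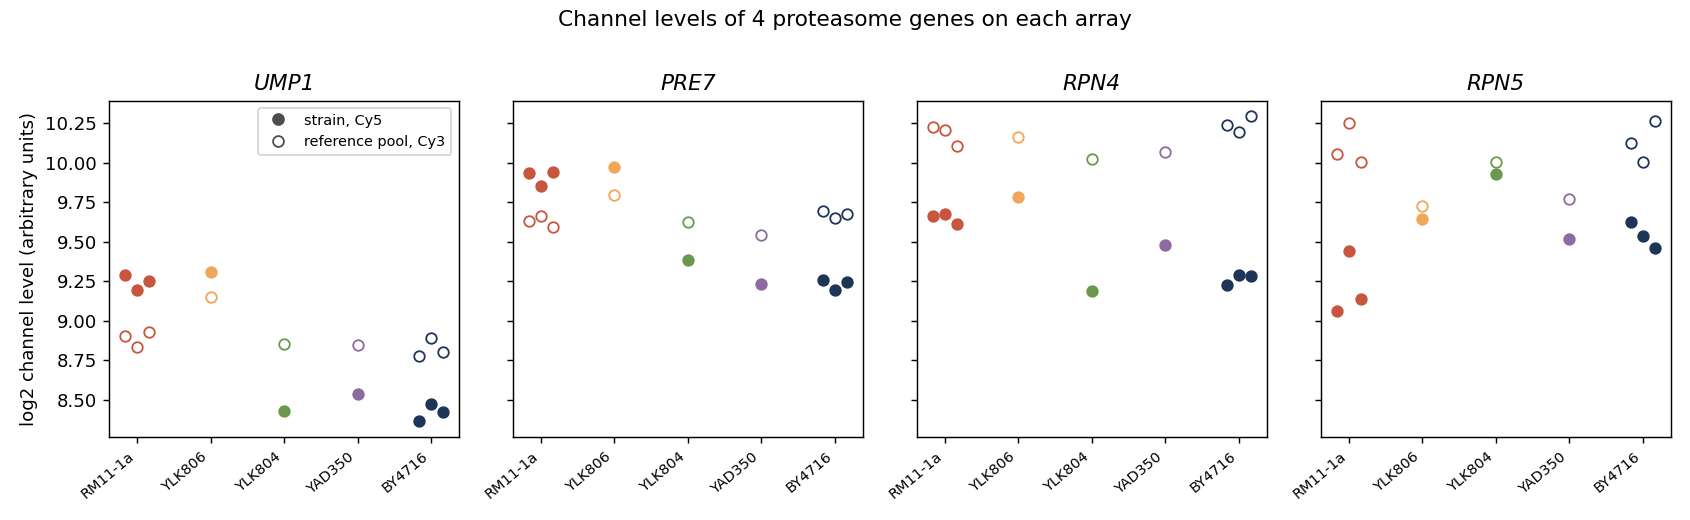
Log2 channel levels, in arbitrary units, of UMP1, PRE7, RPN4 and RPN5 on each array, with the strain in Cy5 as filled points and the reference pool in Cy3 as open points. For UMP1 and PRE7 the open points of RM11-1a and BY4716 lie close together while the filled points lie apart, and for RPN5 the open points also vary.

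RM11-1a was compared with BY4716 to find how the proteasome genes differ between the parents. The parents also differ in LYS2, URA3 and mating type transcripts, and these cannot be told apart from the rest of the background. The core particle genes were higher in RM11-1a: 11 of 14 rose and none fell, with a median log2 difference of 0.24. The largest differences were those of UMP1, 1.69-fold higher, and PRE7, a beta subunit, 1.65-fold higher. RPN4 was 1.36-fold higher. The base and the lid showed no common direction, with 2 rises and 2 falls among 10 base genes and 2 rises and 1 fall among 8 lid genes.

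Over the 34 genes, 17 rose and 3 fell at a Benjamini-Hochberg adjusted p under 0.05 in limma, and the median log2 difference was 0.12. Among all 5865 genes tested, 63.0% were called, 33.1% as higher and 29.9% as lower, and the median was 0.01. The share of proteasome genes called, 58.8%, was near that of all genes. Ratios are normalized within arrays of whole cultures, so a change in part of the cells and a change in every cell cannot be told apart. For 21 of the 34 genes the RM11-1a and BY4716 arrays did not overlap, as was the case for 70.2% of all genes.

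UMP1 had a log2 ratio of 0.36 ± 0.04 in RM11-1a and -0.40 ± 0.02 in BY4716 (SD, n = 3 each), a difference of 0.76 with an SE of 0.04 (adjusted p = 1.95e-06, limma). PRE7 had log2 ratios of 0.30, 0.19 and 0.35 in RM11-1a, against -0.44, -0.46 and -0.43 in BY4716, and differed by 0.72 with an SE of 0.05 (adjusted p = 1.09e-05, limma). Neither gene's arrays overlapped between the strains. PRE4, another beta subunit, was at 0.19, 0.22 and 0.21 in RM11-1a, against -0.17, -0.23 and -0.25 in BY4716 (difference 0.42, adjusted p = 3.82e-05, limma). RPN4, whose values stand above, differed by 0.45 with a 95% interval of 0.35 to 0.55 (adjusted p = 7.42e-05, limma).

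In the alpha ring 6 of 7 genes rose, with a median difference of 0.18 and a range of 0.08 to 0.34. PRE8 differed most, by 0.34, and SCL1, at 0.08, did not pass (adjusted p = 0.155, limma). In the beta ring 5 of 7 rose, with a median of 0.27. The subunits with proteolytic sites did not move together: PUP1, with trypsin-like activity, rose by 0.27 and PRE3, with caspase-like activity, rose by 0.24, while PRE2 differed by -0.04, with a 95% interval of -0.12 to 0.04. PUP3 differed by 0.04 (adjusted p = 0.385, limma) and PRE1 rose by 0.32.

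In the base, only RPT6 and RPT1, both ATPases of the same ring, fell, and the scaffold subunit RPN2 and the ubiquitin receptor RPN10 rose by 0.14 each. RPT6 was at 0.00, -0.05 and 0.00 in RM11-1a, against 0.34, 0.23 and 0.27 in BY4716, with a difference of -0.29 (adjusted p = 4.94e-04, limma). RPT1 was at 0.00, -0.01 and 0.07 in RM11-1a, against 0.20, 0.13 and 0.23 in BY4716, with a difference of -0.17 (adjusted p = 0.00807, limma). The strains did not overlap for either gene, but with scan day as a block RPT1 differed by -0.14 and lost its call (adjusted p = 0.0634, limma). The other 4 ATPases differed by -0.04 to 0.09 and did not pass. RPN13, also a ubiquitin receptor of the base, differed by -0.10 (adjusted p = 0.18, limma).

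In the lid, RPN9 rose by 0.33 and RPN12 by 0.19. RPN5 fell by 0.30 (adjusted p = 0.0269, limma), but its arrays overlapped: it was at -0.99, -0.80 and -0.86 in RM11-1a, against -0.50, -0.47 and -0.81 in BY4716. Its call was lost without RM11-1a replicate 7 or 11 and without BY4716 replicate 7 or 9, with adjusted p between 0.0548 and 0.0932, and with scan day as a block (adjusted p = 0.0543, limma). RPN11, the deubiquitinating enzyme, differed by -0.01, with a 95% interval of -0.11 to 0.08. RPN3, RPN6, RPN7 and RPN8 differed by -0.05 to 0.11 and did not pass.

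**Figure D3:**
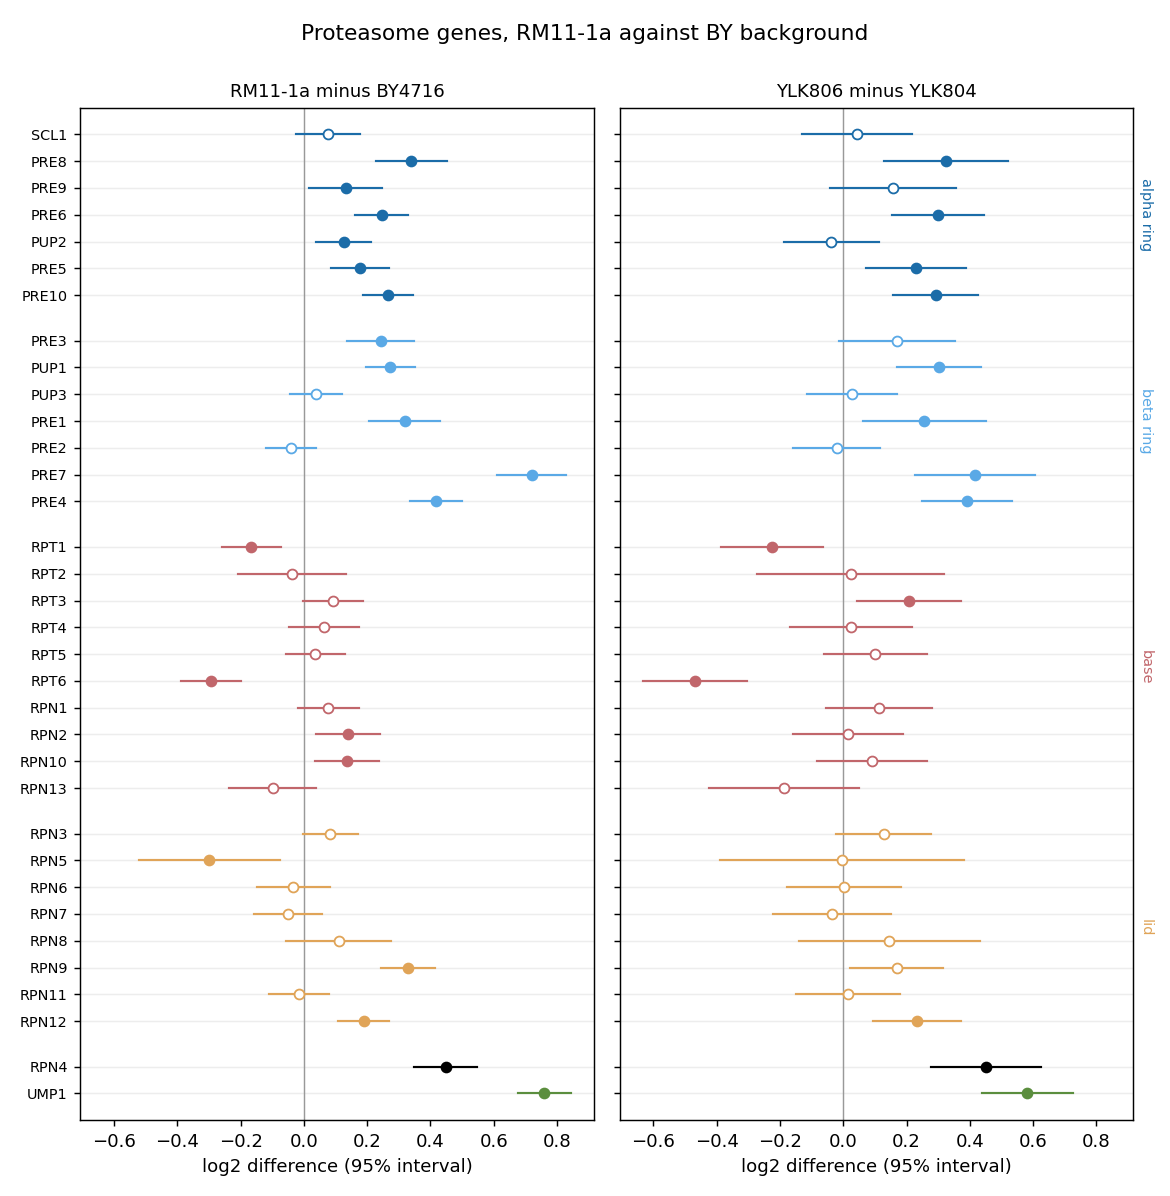
Difference in log2 ratio of each proteasome gene between RM11-1a and BY4716 (left) and between YLK806 and YLK804 (right), with 95% intervals from limma; filled points passed an adjusted p of 0.05. Core particle genes lie mostly right of 0 in both panels, RPT1 and RPT6 lie left of 0 in both, and most base and lid intervals include 0.

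The difference lay in the strain channel. In Cy5, the 20 called genes all had the sign of their ratio, and in Cy3 the same pool moved less than the strain for 19 of the 20, PRE9 being the exception. Among all genes called between the parents, 3683 of 3696 had the sign of their ratio in Cy5, and 2.2% moved more in Cy3. This was thus not particular to the proteasome genes. The median over the 34 genes was 0.07 in Cy5 and -0.04 in Cy3. RM11-1a replicate 9 and BY4716 replicate 9 were scanned on the same day: between these arrays all 17 genes called higher had a positive difference, all 3 called lower a negative one, and UMP1 differed by 0.78. These arrays are among those that gave the calls, so the shared signs are no independent check. With scan day as a block, RPT1 and RPN5 gave the same values as this pair, -0.14 and -0.34, so the block is no separate check. The Cy5 channel taken alone called 11 genes as higher and 4 as lower, against 1579 and 1852 over all genes.

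Genes that act with the proteasome were also described, in lists drawn up for this purpose with earlier results of these data known. Of 17 genes for assembly and associated proteins, 10 rose, none fell and the median was 0.15. These are 58.8% of the list, against 63.0% of all genes called, 33.1% as higher and 29.9% as lower. TMA17, which helps to assemble the base under stress, was at 0.18, 0.28 and 0.43 in RM11-1a, against -1.08, -1.09 and -1.22 in BY4716, a difference of 1.42 (adjusted p = 2.41e-06, limma) that exceeded every subunit's. SPG5, which acts on the proteasome in stationary phase, rose by 0.62, and the base chaperone gene RPN14 by 0.32. The ubiquitin system, with 22 genes, had 8 rises, 3 falls (50% called) and a median difference of 0.07. The AN1-type zinc finger gene TMC1 rose by 0.84, the ubiquitin shuttle gene DDI1 by 0.57 and the polyubiquitin gene UBI4 by 0.77. Of 4 genes for regulators of RPN4 transcription, YAP1 rose by 0.22, PDR1 fell by 0.34, and PDR3 and HSF1 did not pass.

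YLK806 was compared with YLK804 as a comparison of the backgrounds on other arrays, scanned on the same day. It shares no array with the parental comparison, though it shares the reference pool and the estimate of spread, and here the SAL1 alleles are exchanged between the backgrounds. In the ratio, 8 of 14 core particle genes rose in YLK806 and none fell, with a median of 0.24, but the strain channel did not share this shift: the median of the 14 was 0.01 in Cy5 and -0.07 in Cy3, and only 4 of the 8 had the sign of their ratio in Cy5. In the alpha ring that was 1 of 4 called genes, and in the beta ring 3 of 4. UMP1, RPN4, PRE7 and PRE4 had the largest rises and RPT6 the largest fall. Over all 34 genes there were 12 rises and 2 falls and the median difference was 0.12, while 41.1% of all genes were called, 22.1% as higher and 18.9% as lower, with a median of 0.00. Each strain has 1 array, so the test assumes that these arrays vary like those of the parents.

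UMP1 was at 0.16 in YLK806 and -0.43 in YLK804, a difference of 0.58 (adjusted p = 3.55e-04, limma). RPN4 was at -0.38 in YLK806 and -0.83 in YLK804, a difference of 0.45, the same to 2 decimals as between the parents. PRE4 was at 0.03 in YLK806 and -0.36 in YLK804, a difference of 0.39 (adjusted p = 0.002, limma) that did not pass in Cy5 alone (adjusted p = 0.053). RPT6 was at -0.31 in YLK806 and 0.16 in YLK804, a difference of -0.47 (adjusted p = 0.00171, limma). These directions are those of the parental comparison. RPT1 differed by -0.22 (adjusted p = 0.0356, limma), and this call depended on the processing. It was lost without BY4716 replicate 7 or 11 (adjusted p = 0.0644 and 0.055), with a normexp offset of 10 (0.0583), with an intensity trend (0.0617), with the scanner's ratios (0.0857), with the deposited value table (0.0856) and in Cy5 alone (0.246).

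Of the 17 genes called higher in RM11-1a than in BY4716, 11 were also called higher in YLK806 than in YLK804, which is 64.7% of the first list and 91.7% of the second. These 11 include PRE5, PRE6, PRE10 and PRE1, whose Cy5 levels were lower in YLK806 than in YLK804. They also include RPN12, which differed by 0.02 in Cy5 and -0.22 in Cy3. Over all genes, 1230 of the 1941 called higher between the parents were called higher here, or 63.4%. RPT6 fell in both comparisons, RPT1 was called lower in both with the losses given above, and no proteasome gene was called in opposite directions. RPN5, which fell between the parents, differed by 0.00 here, with a 95% interval of -0.39 to 0.38. RPT3, an ATPase, rose by 0.21 here and was not called between the parents.

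The channels were less separate in this comparison. In Cy5, 10 of the 14 called genes had the sign of their ratio, and the exceptions, PRE5, PRE6, PRE10 and PRE1, are all core particle genes. In 5 of the 14 genes the pool moved more than the strain. UMP1 differed by 0.88 in Cy5 and 0.30 in Cy3, and RPN4 by 0.59 in Cy5 and 0.14 in Cy3. PRE6, an alpha subunit called higher by 0.30, differed by -0.75 in Cy5 and -1.05 in Cy3, so its call rests on both channels being dim on the YLK806 array by unequal amounts. PRE5 differed by -0.26 in Cy5 and -0.49 in Cy3, and PRE10 by -0.05 and -0.35. Over all genes called here, 10.5% had the larger movement in Cy3. The Cy5 channel alone called 5 genes as higher and 5 as lower, against 1108 and 1171 over all genes. Median centring in place of loess called 6 and 2, against 1147 and 1055.

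In the companion lists, 5 of 17 assembly and associated genes rose in YLK806 against YLK804 and none fell, with a median of 0.09. The share called was 29.4% in this list and 40.9% in the ubiquitin system, against 41.1% of all genes. TMA17 was at 0.01 in YLK806 and -1.13 in YLK804 (difference 1.15, adjusted p = 3.48e-04, limma), RPN14 rose by 0.49 and SPG5 by 0.41. Of 22 ubiquitin system genes 6 rose and 3 fell, with TMC1 up by 0.80, UBI4 by 0.91 and UBC5, a ubiquitin-conjugating enzyme gene, by 0.40. Of the RPN4 regulators, YAP1 rose by 0.17, PDR1 fell by 0.36, and PDR3 and HSF1 did not pass. YAP1 differed by 0.05 in Cy5 and -0.12 in Cy3.

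YAD350 was compared with BY4716 to ask what the MKT1 replacement does in the laboratory background, in which the D30G strain also had histidine in its medium and had far less HIS3 and URA3 transcript (differences of -4.48 and -4.27). These differences and the MKT1 allele cannot be told apart. RPN4 rose, while the ratios of most base genes fell: 8 of 10 fell and none rose, with a median of -0.37. Part of this lay in the reference channel: the median of the 10 base genes was -0.12 in Cy5 and 0.20 in Cy3, and 5 of the 8 called genes moved more in Cy3. Over the 34 genes there were 3 rises and 17 falls and the median difference was -0.14, against 47.1% of all genes called, 26.6% as higher and 20.5% as lower, and a median of 0.02. YAD350 had 3 of 34 genes above the pool, against 12 to 16 on the BY4716 arrays.

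RPN4 was at -0.59 in YAD350, against -1.01, -0.90 and -1.01 in BY4716, a difference of 0.39 with an SE of 0.06 (adjusted p = 0.00215, limma). PRE8 and RPN9 were the other genes that rose, by 0.32 and 0.21, and the call of RPN9 was lost with the scanner software's own ratios (adjusted p = 0.0573, limma), with median centring (0.0686) and in Cy5 alone (0.079). PRE8 and RPN9 had larger movements in Cy5, 0.40 and 0.21, than in Cy3, 0.08 and -0.01. RPN4 moved in both channels, by 0.22 in Cy5 and by -0.17 in Cy3, so part of its rise lay in the reference channel. UMP1 was at -0.31 in YAD350, against -0.41, -0.42 and -0.38 in BY4716, and the difference of 0.09 did not pass (adjusted p = 0.158, limma).

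PRE10 had the largest fall, to -0.51 in YAD350, against 0.12, 0.06 and 0.08 in BY4716 (difference -0.60, adjusted p = 2.03e-04, limma). That fall lay in the pool: the Cy5 level was 9.17 in YAD350, against 9.25, 9.18 and 9.15 in BY4716, while the Cy3 level was 9.69 on the YAD350 array, against 9.13, 9.11 and 9.07 on the BY4716 arrays. The strain levels thus overlapped and the pool levels did not. RPN10 differed by -0.59 in its ratio, by -0.24 in Cy5 and by 0.36 in Cy3, and in Cy5 alone it did not pass (adjusted p = 0.108, limma). RPT6, in contrast, was at -0.30 in YAD350, against 0.34, 0.23 and 0.27 in BY4716 (difference -0.58, adjusted p = 4.7e-04, limma), with -0.49 in Cy5 and 0.09 in Cy3.

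Within the base, the ratios therefore fell through different channels. RPT1, RPT2 and RPT6 moved in Cy5, by -0.55, -0.37 and -0.49, with Cy3 between -0.10 and 0.09. RPT3, RPT4 and RPT5 moved in Cy3, by 0.27, 0.31 and 0.36, with Cy5 between -0.03 and 0.15. RPN2 and RPN10 moved in both channels, with the larger change in Cy3. Of the 20 genes called, 16 had the sign of their ratio in Cy5 (the exceptions were PUP3, RPT3, RPT5 and RPN12) and 9 had the larger movement in Cy3, against 37.2% of all genes called in this comparison. The Cy5 channel alone called 3 proteasome genes as higher and 7 as lower, against 919 and 924 over all genes.

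**Figure D4:**
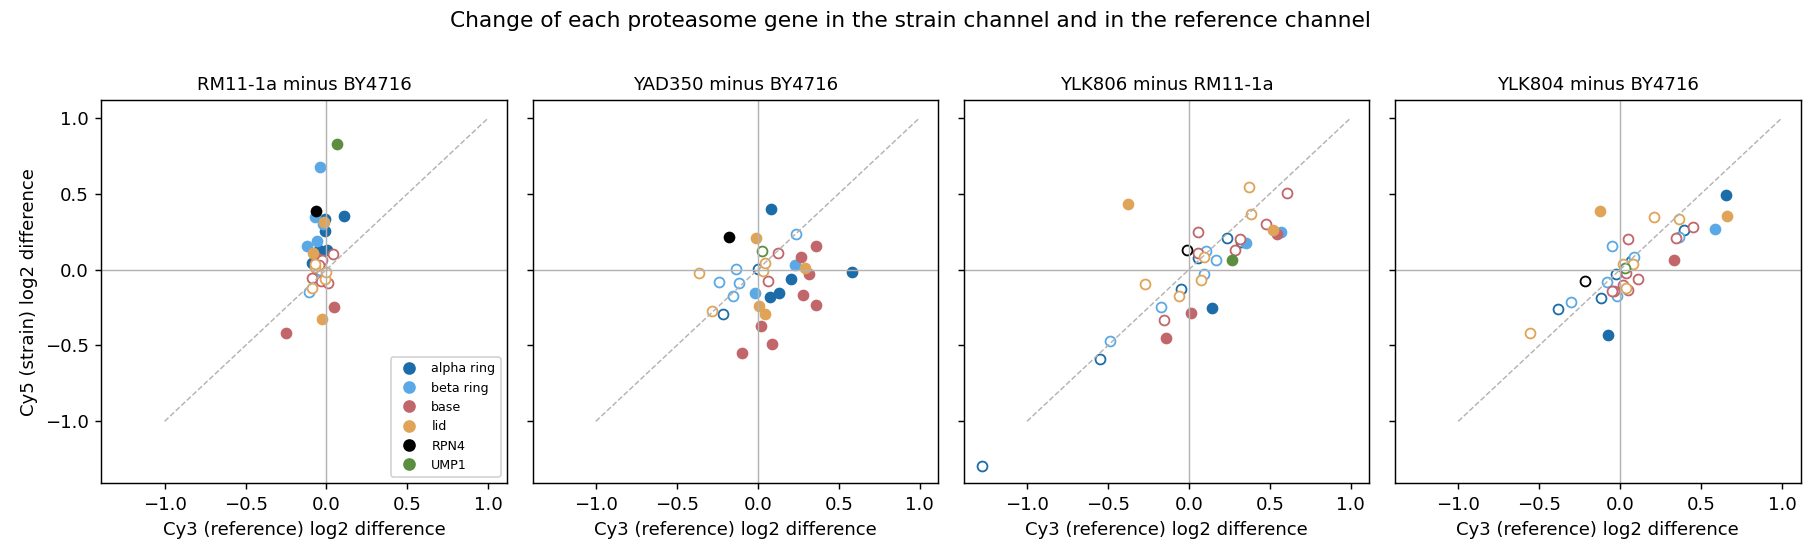
Difference of each proteasome gene in the strain channel (Cy5, vertical) against that in the reference channel (Cy3, horizontal), both on the log2 scale, in 4 comparisons; filled points were called from the ratio and the dashed line marks equal change in both channels. In the comparison of RM11-1a with BY4716 the points spread vertically, in that of YAD350 with BY4716 many base genes lie to the right of 0, and in the SAL1 strains most points follow the dashed line.

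When the average departure of YLK804 and YLK806 from their parents was subtracted, 4 genes were higher in YAD350 (PRE8 by 0.34, RPN9 by 0.28, RPN4 by 0.25 and UMP1 by 0.21) and 6 were lower. The 6 were PRE10 (-0.45), RPT6 (-0.37), RPT1 (-0.32), RPN11 (-0.31), RPN10 (-0.30) and PRE6 (-0.24), the last with 0.59 in Cy5 and 0.83 in Cy3. Among all genes 30.8% were called in this form. The YAD350 array was alone on its scan day, so scan day and strain cannot be told apart.

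In the remaining groups, 4 of 7 alpha ring genes fell and 1 rose, 2 of 7 beta ring genes fell, and 3 of 8 lid genes fell and 1 rose. PRE2, PRE4 and PRE9 differed from BY4716 by -0.02, 0.00 and 0.00. Of the 17 assembly and associated genes 4 rose and 5 fell (52.9% called, against 47.1% of all genes). The base chaperone genes NAS6 and HSM3 rose by 0.32 and 0.23, and FUB1 fell by 0.62, with 0.03 in Cy5 and 0.65 in Cy3. NAS6 differed by 0.14 in Cy5 and -0.18 in Cy3, so the larger part of its rise lay in the pool. Among the 9 called genes of this list, 7 moved more in Cy3, against 37.2% of all genes called. In Cy5, 6 of these 9 had the sign of their ratio. Of the 22 ubiquitin system genes 4 rose and 5 fell (40.9% called). TMC1 was up by 0.50, RSP5, a ubiquitin ligase gene, up by 0.36, and RAD23, a ubiquitin shuttle gene, down by 0.32. RSP5 differed by 0.15 in Cy5 and -0.21 in Cy3, and RAD23 by -0.42 and -0.10. In this list 3 of the 9 called genes moved more in Cy3. Among the RPN4 regulators HSF1 rose by 0.24, with -0.05 in Cy5 and -0.29 in Cy3, and PDR1 rose by 0.21.

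YLK806 was compared with its parent RM11-1a and YLK804 with BY4716, which stands in for BY4724, and the SAL1 allele was then taken as the factor over both. SAL1 encodes a mitochondrial carrier. YLK804 also differed from BY4716 in URA3 (-4.84), STE2 (4.73) and STE3 (-4.45), and these genes were called in the averaged SAL1 comparison too, at -2.15, 2.40 and -2.08. The SAL1 allele therefore cannot be told apart from these differences in YLK804 and in every value that uses it. Of the 34 proteasome genes, 26.5% were called in YLK806 and 17.6% in YLK804. YLK806, which carries the BY allele, had 1 rise and 8 falls against RM11-1a and a median difference of -0.10. YLK804, which carries the RM allele, had 1 rise and 5 falls against BY4716 and a median difference of -0.07. Among all genes 22.5% were called in YLK806 (10.8% higher, 11.8% lower) and 21.1% in YLK804 (644 of 5865 higher, and 10.2% lower).

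RPN5 was the gene that rose in each: it was at -0.08 in YLK806, against -0.99, -0.80 and -0.86 in RM11-1a (difference 0.81, adjusted p = 0.00907, limma), and at -0.08 in YLK804, against -0.50, -0.47 and -0.81 in BY4716 (difference 0.51, adjusted p = 0.0357, limma). YLK806 lay above every RM11-1a array, and YLK804 above every BY4716 array. The YLK804 call was lost with the scanner's ratios (adjusted p = 0.0593, limma) and without BY4716 replicate 7 (0.0603), and without that array 3 proteasome genes in all were called there, none of them higher. In Cy5 RPN5 differed by 0.43 in YLK806 and by 0.39 in YLK804, and in Cy3 by -0.38 and -0.12, and in Cy5 alone neither passed (adjusted p = 0.0704 and 0.0893, limma).

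PUP3, SCL1 and RPN12 had the smallest p among the genes that fell, with nearly the same size in each comparison. PUP3 differed by -0.32 in YLK806 and -0.31 in YLK804, RPN12 by -0.26 and -0.31, and SCL1 by -0.39 and -0.36. For PUP3 and RPN12 the strain channel went the other way: PUP3 differed by 0.24 in Cy5 and 0.57 in Cy3 in YLK806, and by 0.27 in Cy5 and 0.58 in Cy3 in YLK804. RPN12 differed by 0.26 in Cy5 and 0.52 in Cy3 in YLK806, and by 0.35 in Cy5 and 0.66 in Cy3 in YLK804. SCL1 kept its sign in the strain channel, with -0.25 in YLK806, where Cy5 alone did not pass (adjusted p = 0.0598, limma), and -0.43 in YLK804.

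RPN10 was also called in both, with a difference of -0.32 in YLK806 and -0.27 in YLK804, but its Cy5 difference was 0.23 and 0.06, opposite to the ratio, and its Cy3 difference 0.55 and 0.33. RPT6 (-0.30), RPN2 (-0.31), UMP1 (-0.20) and PRE4 (-0.18) were called in YLK806, and PRE10 (-0.16) in YLK804. In Cy5 PRE4 differed by 0.18 in YLK806 and PRE10 by 0.49 in YLK804, again opposite to their ratios. Of the called genes, 4 of 9 in YLK806 and 2 of 6 in YLK804 had the sign of their ratio in Cy5. The call of UMP1 was lost with median centring (adjusted p = 0.07, limma), without RM11-1a replicate 7 and without BY4716 replicate 7 or 11, with adjusted p for the left-out arrays between 0.0568 and 0.0608, and in Cy5 UMP1 differed by 0.06. RPN4 differed by 0.15 in YLK806 (adjusted p = 0.121, limma) and by 0.14 in YLK804 (adjusted p = 0.136, limma). Among the called genes, the pool moved more than the strain for 5 of 9 in YLK806 and 4 of 6 in YLK804, against 858 of 1320 and 772 of 1240 over all genes called. The Cy5 channel alone called 7 genes as higher and 7 as lower in YLK806, against 1174 and 950 over all genes. In YLK804 it called 9 and 4, against 878 and 735.

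**Figure D5:**
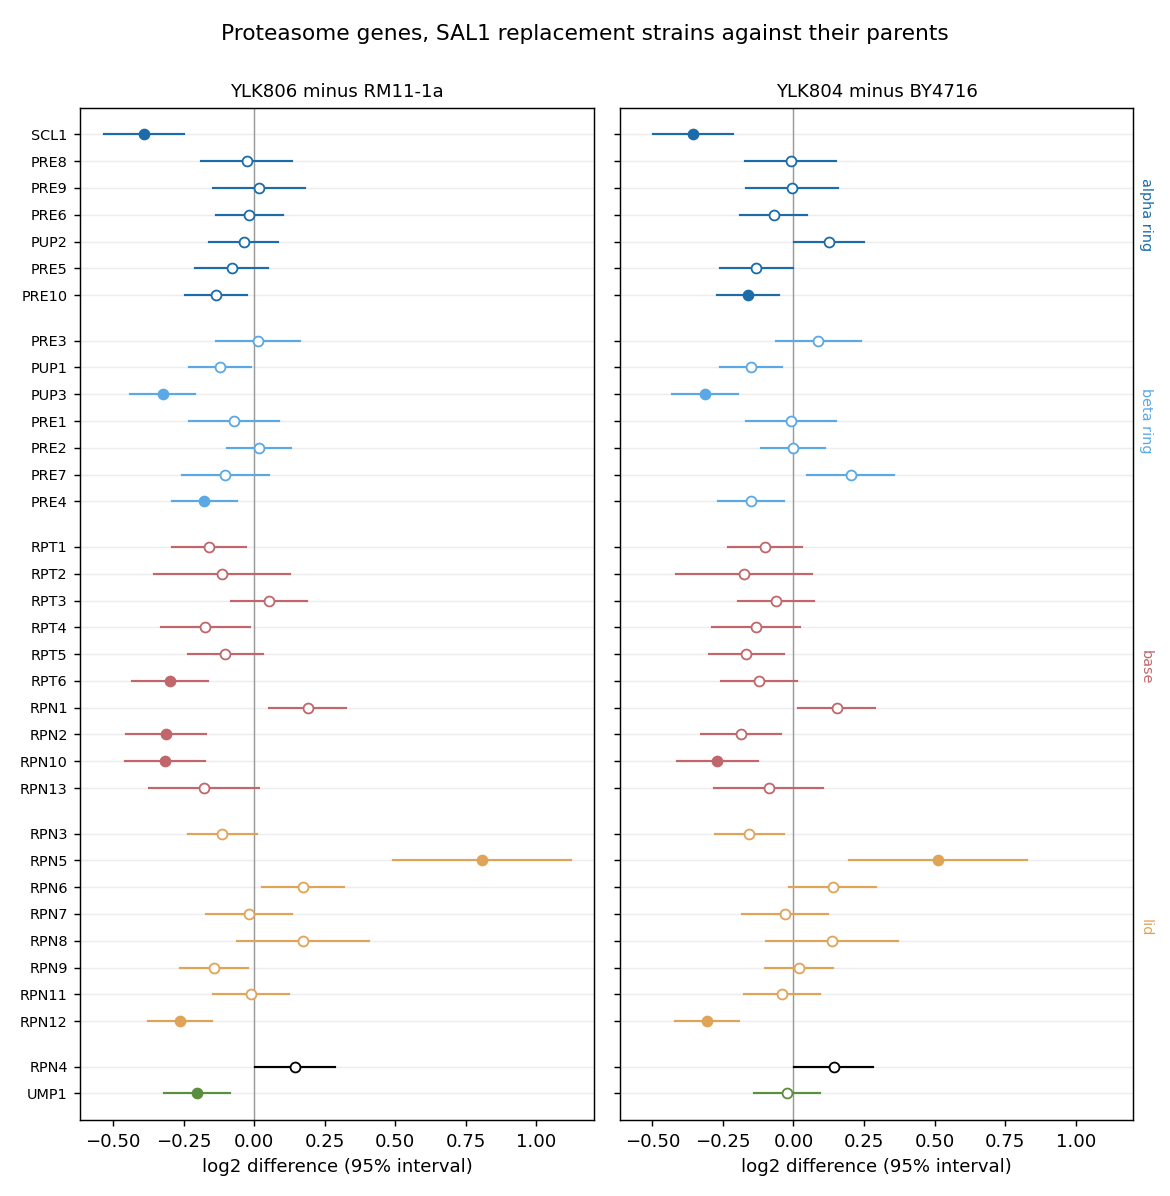
Difference in log2 ratio of each proteasome gene between YLK806 and RM11-1a (left) and between YLK804 and BY4716 (right), with 95% intervals from limma; filled points passed an adjusted p of 0.05. RPN5 is the only filled point right of 0 in either panel, and PUP3, SCL1, RPN12 and RPN10 are filled and left of 0 in both.

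Averaged over both backgrounds, the RM allele of SAL1 against the BY allele gave no call among the 34 genes in limma. At an unadjusted p under 0.05 there were 2 of the 34, against 10.9% of all genes. Both were higher with the RM allele, and differences ran from -0.15 to 0.15. Over all genes 0.853% were called at the adjusted p. The median over the 34 genes was 0.00 in the ratio, -0.02 in Cy5 and -0.01 in Cy3. Of the other settings, only the Cy5 channel alone made a call, of 1 gene, against 393 over all genes.

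The test of whether the allele difference differs between backgrounds adds the shift of YLK804 from BY4716 to that of YLK806 from RM11-1a. It called 18 of the 34 genes, 4 as higher and 14 as lower, against 38.6% of all genes (18.7% higher, 20.0% lower). RPN5 had the largest value, 1.32, and SCL1 the lowest, -0.75. YLK804 and YLK806 share a scan day and a version of the scanner software that no other array has, so a shift of these arrays and a difference between backgrounds cannot be told apart. The pool moved more than the strain for 10 of these 18 genes, and 10 had the sign of their ratio in Cy5.

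In the companion lists, 1 assembly and associated gene rose and 4 fell in YLK806, and 1 rose and 3 fell in YLK804. In YLK806 29.4% of this list and 9.1% of the ubiquitin system were called, against 22.5% of all genes. The shares in YLK804 were 23.5% and 18.2%, against 21.1% of all genes. PBA1, a core assembly chaperone gene, fell by 0.40 in YLK806 and by 0.34 in YLK804, with Cy3 higher by 0.34 and 0.39. In YLK806 the ratio of BLM10, a proteasome activator gene, rose by 0.40 and that of SPG5 fell by 0.44, while the strain channel went the other way, with -0.34 for BLM10 and 0.27 for SPG5. In Cy5, 2 of the 5 called assembly and associated genes kept the sign of their ratio in YLK806, and 3 of 4 in YLK804. In YLK804, IRC25 fell by 0.26 and POC4 by 0.27, both core assembly chaperone genes. Of the ubiquitin system, 2 genes fell in YLK806 and none rose, namely UBC5 by 0.25, with 0.29 in Cy5, and CUZ1 by 0.37. In YLK804, 2 rose and 2 fell, with UBC5 down by 0.48 and UBA1, the ubiquitin-activating enzyme gene, and UBR2, a ubiquitin ligase gene, up by 0.28 and 0.16. Each of these 3 had the opposite sign in Cy5, with 0.14 for UBC5, -0.28 for UBA1 and -0.03 for UBR2. Among the RPN4 regulators the ratio of HSF1 rose in both, by 0.25 in YLK806 and 0.30 in YLK804, but its strain level was lower, with -0.21 and -0.48 in Cy5 and -0.46 and -0.78 in Cy3. PDR3 rose by 0.19 in YLK806. The averaged SAL1 allele gave no call in these lists. The interaction called 9 of 17, 7 of 22 and 3 of 4 genes (52.9%, 31.8% and 75%), against 38.6% of all genes.

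The 34 genes lie on 13 chromosomes, per the R64 annotation. Only PRE4 with RPN12 and RPT4 with RPN8 are near neighbours, with 1 gene between them in each case. PRE4 and RPN12 rose in RM11-1a, by 0.42 and 0.19, and RPT4 and RPN8 did not pass there, with 0.06 and 0.11.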

How the data were processed

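Feature Extraction 8.5.1.1 (7 arrays) and 9.1.3.1 (YLK804 and YLK806) gave the spot intensity in each channel and the log10 ratio of Cy5 over Cy3, per the file headers. The authors' deposited value table gives log2 ratios, and these matched the scanner's within 0.0005; its column medians lay between 0 and 0.008, and scale and direction are known. From the intensities, mean signals were corrected by normexp (offset 50) and normalized by loess within arrays in limma 3.58.1 (R 4.3.3). Control spots had no weight in the loess. Control and outlier-flagged spots were left out after these steps, and the remaining spots were averaged per gene. A gene was tested if 3 or more of the 9 arrays had it well above background in Cy5 or Cy3, which left 5865. Channel levels followed loess and Aquantile, with no test. The offset draws log2 ratios toward 0.

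Median signals were 237 to 424 (Cy5) and 179 to 272 (Cy3), over backgrounds of 21 to 32; the number of arrays limits the precision. The 9 arrays entered a single model of 5 groups (lmFit and eBayes, 4 residual degrees of freedom), with Benjamini-Hochberg adjustment over all genes. The model was also run on simulated data, in which the gene spread of every array was taken from the BY4716 arrays. That run could not test whether strains on 1 array vary like the parents. Strains on 1 array borrow the parents' spread.

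The 34 genes and the lists of 17, 22 and 4 genes were chosen with earlier results of these data known. Given in full were RPN4, UMP1 and the 3 called genes with the smallest p in each direction, and from each list the 3 called genes with the smallest p; other proteasome genes are described by group. Alternatives changed background correction, normalization, filter, ratio source, channel, scan day, replicate block and each parental array. Replicate numbers did not pair the samples: correlations of same-numbered deviations were -0.21, 0.14 and -0.18.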

Additional observations from a re-analysis of the deposited data

Results flagged for a closer look

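The interaction test in limma, of the SAL1 allele difference between the backgrounds, called 18 proteasome genes, against 38.6% of all genes. It is the sum of the shifts of the YLK804 and YLK806 arrays, which share a scan day and a software version, so a shift of these arrays and a difference between the backgrounds cannot be told apart. The value is the RM minus BY allele difference in the BY background minus that in RM11-1a. It was above 0 for RPN5 (1.32), RPN1 (0.34), RPN6 (0.31) and RPN4 (0.29). It was below 0 for SCL1 (-0.75), PUP3 (-0.64), RPN10 (-0.58), RPN12 (-0.57), RPN2 (-0.50), RPT6 (-0.42), PRE4 (-0.33), RPT4 (-0.31), PRE10 (-0.30), RPT5 (-0.27), PUP1 (-0.27), RPN3 (-0.27), RPT1 (-0.26) and UMP1 (-0.22). Adjusted p ran from 9.37e-04 for PUP3 to 0.0413 for UMP1. The other settings were run for RPN5, RPN1, RPN4, SCL1, PUP3, RPN12 and UMP1. The calls of RPN4 and UMP1 were lost with scan day as a random block (adjusted p = 0.0569 and 0.0754), with the scanner's ratios (0.069 and 0.065), with median centring (0.11 and 0.0622) and in Cy5 alone (0.315 and 0.844). Leaving out RM11-1a replicate 7 or BY4716 replicate 7 or 11 also ended both calls, with 0.0509 to 0.0741 for RPN4 and 0.0701 to 0.0912 for UMP1. UMP1 was also lost without RM11-1a replicate 9 (0.0523) or BY4716 replicate 9 (0.063), with an offset of 10 (0.0826) and with an intensity trend (0.0596), and RPN4 with scaling between arrays (0.0867). RPN1 was lost with median centring (0.0736). In the Cy5 channel taken alone, PUP3 was at 0.60 and RPN12 at 0.63, opposite in sign to their ratios.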

How the results depend on the processing

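The parental comparison kept between 15 and 20 called genes under every alternative that uses all arrays of both parents. With the replicate block, on the parental arrays only, 18 genes were called (15 higher, 3 lower), against 20 without the block; the numbers do not pair the samples. Leaving out each parental array gave 16 to 22 genes for RM11-1a minus BY4716, 16 to 20 for YAD350, 3 to 7 for YLK804, 7 to 9 for YLK806 minus RM11-1a, 11 to 13 for YLK806 minus YLK804, 0 for the averaged SAL1 allele and 12 to 18 for the interaction.

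With the Cy5 channel alone, 10 genes were called in YAD350 minus BY4716, 13 in YLK804 minus BY4716, 14 in YLK806 minus RM11-1a and 1 for the averaged SAL1 allele. Over all genes these counts were 1843, 1613, 2124 and 393. In YLK804 RPN12 was then at 0.39 and PUP3 at 0.30, in YLK806 PUP3 was at 0.30, RPN12 at 0.24 and UMP1 at 0.058, and in the interaction RPN12 was at 0.63, PUP3 at 0.60 and UMP1 at 0.026, each opposite to its ratio, and for each the Cy3 level moved more than the Cy5 level. Subtracting the mean departure of the SAL1 arrays left 10 genes for YAD350 and 1803 of all genes, against 2755. YLK806 minus YLK804 had 9 genes with the scanner's ratios, 9 with the deposited value table and 8 with median centring. Without BY4716 replicate 7, YLK804 had 3. The cause was not tested for these counts. Over all genes, YLK804 minus BY4716 had 1240 calls, 629 with median centring and 590 and 623 without BY4716 replicate 7 or 11, and YLK806 minus RM11-1a had 1320, 800 with median centring, 2124 in Cy5 alone and 867 and 856 without those arrays. The averaged SAL1 allele had 50 calls over all genes and between 28 and 393 under the alternatives. Scan day as a block gave 15 genes for the parents and 17 for YLK806 minus YLK804. Scan day as a random block was chosen after seeing the data; slide as a random block could not be fitted.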
